A study of Mus musculus with 2 samples.

Results

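Mir132, Mir212 and Mir202 are microRNA (miRNA) genes linked to steroid-producing tissue. The first 2 lie side by side on chromosome 11 and Mir202 lies on chromosome 7. They were taken by their gene symbols in GENCODE M21 and are 3 of the 2202 miRNA genes in the count files. Small RNA of under 30 nt from total RNA of whole adrenal glands was sequenced in 1 library per animal. The animals were 2 male B6CASTF1/J mice aged 2 months with no treatment named, first-generation hybrids of a C57BL/6 laboratory strain and the wild-derived CAST strain. Animal 3 is replicate 1 and animal 4 is replicate 2, and no second tissue, dose or age was sampled, so the series shows which levels the genes had and how far the animals differed. Cortex and medulla were not separated, so fewer cells of a type and less RNA per cell cannot be told apart.

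MiRNAs are cut from the arms of a hairpin and repress messenger RNAs that pair with their seed, the bases near the 5′ end. Mir212 and Mir132 are made from a shared primary transcript that the cAMP-responsive factor CREB switches on, best known from neurons and their response to activity. In the adrenal cortex, the pituitary hormone ACTH signals through cAMP to drive steroid production, and both miRNAs have been reported to respond to it in rats. Mir202 is best known from the gonads, where supporting cells of testis and ovary express it, and the gonads and the adrenal cortex arise from a common primordium.

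The sequences come from RefSeq (GRCm38.p6, the assembly that mm10 names), where all 3 genes matched by symbol, and each hairpin was identical to the GENCODE M21 sequence. The mature products of the 3′ arms are shown first because Mir132 and Mir212 share a seed (bases 2 to 8, in capitals) and can thus pair with the same sites.
miR-132-3p: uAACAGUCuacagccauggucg
miR-212-3p: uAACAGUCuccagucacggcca
These are equal at 17 of 22 bases. Counted from 1 at the 5′ end, with the base of miR-132-3p first, they differ by A10C, C14U, U17C, U20C and G22A, all outside the seed. No other of the 1679 mature miRNA names searched carried this seed. The 5′ arms of the pair have unrelated seeds, each found once among the names searched.
miR-132-5p: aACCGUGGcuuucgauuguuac
miR-212-5p: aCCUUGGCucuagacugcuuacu

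The arms of Mir202 are shown beside 2 let-7 products, because its 3′ arm carries a let-7-like seed. Bases 2 to 7 of miR-202-3p are those of let-7, and base 8 differs from let-7g-5p by G8U (let-7g base first). The full seed was shared with let-7j alone.
miR-202-3p: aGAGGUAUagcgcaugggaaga
let-7j: uGAGGUAUuaguuugugcuguuau
let-7g-5p: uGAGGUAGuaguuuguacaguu
miR-202-5p: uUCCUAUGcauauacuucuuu
Beyond the seed the likeness ended: miR-202-3p and let-7g-5p were equal at 7 of 22 bases, and miR-202-3p and let-7j at 8. The seed of miR-202-5p was found in no other of the names searched.

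The whole hairpins, with the mature arms in capitals, show what 1 row of the count files covers. Reads of both arms fall into the same row, so the counts do not say which arm was present.
Mir212: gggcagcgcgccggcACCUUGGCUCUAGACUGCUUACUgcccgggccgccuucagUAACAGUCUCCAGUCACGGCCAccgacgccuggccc
Mir132: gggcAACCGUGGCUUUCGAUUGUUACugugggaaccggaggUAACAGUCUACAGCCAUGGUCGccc
Mir202: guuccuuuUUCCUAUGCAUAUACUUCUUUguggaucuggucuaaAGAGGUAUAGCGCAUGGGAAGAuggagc
The hairpins are 91, 66 and 72 bases long with a GC content of 69.2%, 57.6% and 43.1%. Their longest run shared with any other of the 2202 annotated miRNA genes was 12 bases for Mir212 and Mir202 and 11 bases for Mir132, on either strand. Each of the 3 is a single-copy gene by this measure.

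In mm10, Mir212 (ENSMUSG00000065590.1) lies at chr11:75173388-75173478 and Mir132 (ENSMUSG00000065537.2) at chr11:75173682-75173747, both on the plus strand. Only 203 bases separate them, and both sit in intron 1 of the non-coding transcript 1700016P03Rik. Within 10 kb lie Hic1, Ovca2 and Dph1 on the opposite strand and Smg6 on the same strand, all protein-coding. Mir202 (ENSMUSG00000065502.1) lies at chr7:139957689-139957760 on the minus strand, inside exon 2 of the long non-coding RNA Gm2044. An intron of Gm16201, also non-coding, spans it on the opposite strand. A further annotated miRNA gene, mmu-mir-7686, follows 66 bases downstream in the same exon and had no count in either library. The column read here as the opposite strand held no count for any of the 3 genes in either library, and their counts with and without regard to strand were equal.

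**Figure D1:**
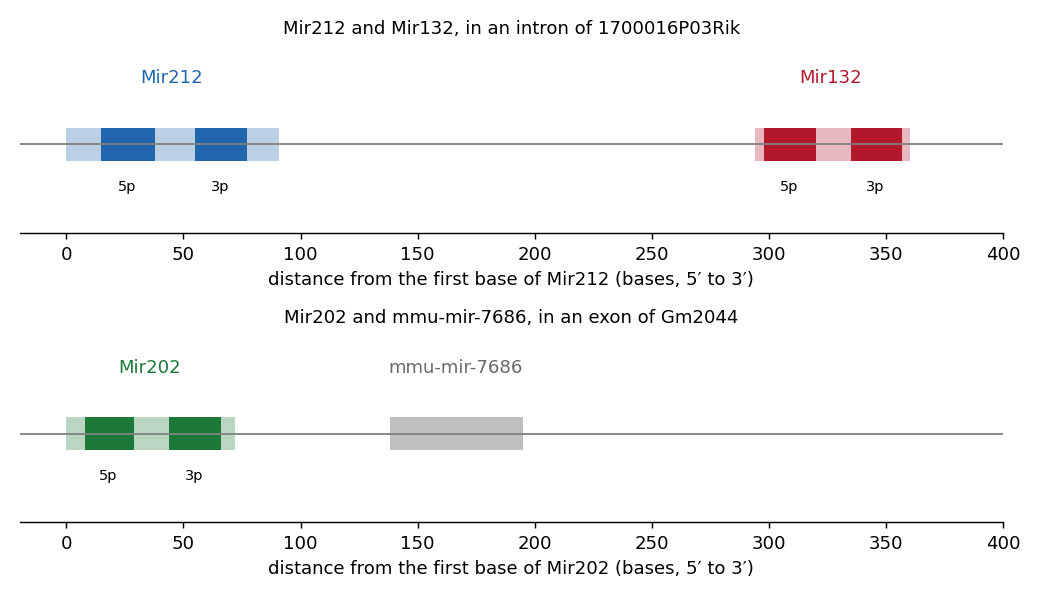
Positions of the members on their own strand, in bases from the first base of Mir212 (upper panel) or Mir202 (lower panel). Pale boxes are annotated hairpins, dark boxes the 5′ and 3′ mature arms, and the grey box is mmu-mir-7686. Mir212 and Mir132 stand 203 bases apart, and Mir202 stands 66 bases from a gene without counts.

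Depth set how well each gene could be read. At miRNA genes, 5752428 reads were counted in replicate 1 and 3333149 in replicate 2, and levels are given as counts per 1000000 of these counted reads (CPM). The upper limit for a gene with no counts was set at 3 counts, or 0.522 CPM for replicate 1 and 0.900 CPM for replicate 2. The exact interval described below reaches 0.641 and 1.11 CPM for a count of 0. Of the 2202 genes, 372 reached 2 CPM in both libraries and are called detected. Intervals here are exact Clopper-Pearson intervals at 95% and cover counting error only, for reads that carry no molecular identifiers. Gene counts leave aside multimapping reads, which made up 26.2% of the first library and 28.8% of the second.

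Mir132 was a well-expressed gene of the gland and was nearly level between the animals. It had 8143 counts in replicate 1, or 1416 CPM (1385 to 1447), and 4830 counts in replicate 2, or 1449 CPM (1409 to 1491). Its mean was 1432 ± 23.7 CPM (SD, n = 2), rank 63 of all genes, above 83.1% of the detected ones. The intervals of the libraries overlapped, and the coefficient of variation was 1.65%.

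Mir212, the other product of the locus, was far lower and uneven between the animals. It had 211 counts in replicate 1, or 36.7 CPM (31.9 to 41.98), and 292 counts in replicate 2, or 87.6 CPM (77.8 to 98.3). Replicate 2 was thus higher in counts despite its smaller library, by 2.39-fold in CPM, and the intervals did not overlap. The mean of 62.1 ± 36.0 CPM (SD, n = 2) lies between unlike values, at rank 208. It was above 44.1% of the detected genes, whose median was 86.8 CPM. Taken from replicate 1 alone the level is 36.7 CPM, a change of over 1.5 times.

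Mir202 was present but scarce. It had 50 counts in replicate 1, or 8.69 CPM (6.45 to 11.5), and 44 counts in replicate 2, or 13.2 CPM (9.59 to 17.7). Both values stood well above the limit of a count of 0, and their intervals overlapped. The mean was 10.9 ± 3.19 CPM (SD, n = 2), rank 288, above 22.6% of the detected genes.

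The order Mir132, Mir212, Mir202 held in both libraries, and each step was larger than the counting error. Mature miRNAs are of like length, so counts of the genes were compared directly, and values per base of the annotated hairpin are given as well. The ratios are of counted reads, and whether the miRNAs entered the libraries equally well was not tested. Mir132 exceeded Mir212 38.6-fold in replicate 1 (33.7 to 44.5) and 16.5-fold in replicate 2 (14.7 to 18.7). Per hairpin base these ratios were 53.2 and 22.8. Mir132 exceeded Mir202 163-fold in replicate 1 (123 to 220) and 110-fold in replicate 2 (81.6 to 151.3). Mir212 exceeded Mir202 by much less, 4.22-fold in replicate 1 (3.09 to 5.87) and 6.64-fold in replicate 2 (4.82 to 9.33).

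These ratios are free of depth and scaling, so their change between animals was tested directly for all 3 pairs (two-sided Fisher's exact test, Benjamini-Hochberg adjusted over 3). The ratio of Mir132 to Mir212 was 2.33-fold larger in replicate 1 (95% interval 1.94 to 2.81, exact adjusted p = 6.51e-20). The ratio of Mir132 to Mir202 was 1.48-fold larger there (0.965 to 2.27), and that of Mir212 to Mir202 was 0.636 times that of replicate 2 (0.398 to 1.01), both with an exact adjusted p of 0.0682. At the depth of Mir202, a change of its ratio to either gene was not separable from counting error, and the intervals still allow a change of over 2-fold. With 1 library on each side, the test compares these libraries and not conditions, and takes reads as independent.

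Read as 1 seed family, Mir132 and Mir212 together reached 1452 CPM in the first animal's library and 1537 CPM in the second's. Mir212 supplied 2.53% of these counts in replicate 1 (2.20 to 2.89) and 5.70% in replicate 2 (5.08 to 6.37). The family sum of counts was thus carried by Mir132 in both animals, and the animals differed in the minor share. These shares count whole hairpins, 5′ arms included.

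The seed partners of Mir202 were of another order of abundance. The let-7 genes hold growth in check in adult tissues, and 15 other genes have a product, or hold one in their hairpin, that shares bases 2 to 7 with miR-202-3p. Of these 13 were detected, and together they took 32.9% (replicate 1) and 31.8% (replicate 2) of all counts. There were 37848.5 counts of these genes for each count of Mir202 in replicate 1 and 24093 in replicate 2. These counts are of whole hairpins, so arms without the shared bases are included. Several let-7 genes are copies whose shared reads multimap and are missing here, so their sum is uncertain. Mir7j, the gene of let-7j and the sole partner with the full seed, stood at 47.98 CPM (replicate 1) and 49.2 CPM (replicate 2), above Mir202 in both libraries.

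Each gene was also compared between the libraries after TMM scaling, which allows for a few genes taking a large share of 1 library. A two-sided exact binomial test, Benjamini-Hochberg adjusted, covered the 389 genes whose mean count was at least 10. The log2 ratio is replicate 1 over replicate 2, and its SE covers counting error. The test called 59.1% of the tested genes, 30.8% higher and 28.3% lower in replicate 1, so a call by itself is common here. Mir212 was lower in replicate 1, with a log2 ratio of -1.06 (SE 0.13, exact adjusted p = 1.36e-15). Only 13.4% of the tested genes lay as far from 0, while the median distance over all tested genes was 0.40.

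Mir132 was called higher in replicate 1 by TMM, with a log2 ratio of 0.17 (SE 0.03, exact adjusted p = 6.62e-10), but by total counts the sign turned (-0.034) and the call was lost (exact adjusted p = 0.267). A distance of this size or more was found in 76.1% of the tested genes. Mir202 was not called, with a log2 ratio of -0.41 (95% interval -0.99 to 0.18) and an exact adjusted p of 0.293. Relative to scaling by totals, TMM shifted every log2 ratio by 0.20. Scaled by totals, 21.9% of the tested genes were called higher and 43.7% lower in replicate 1, against the 120 higher and 110 lower genes by TMM, and Mir212 stayed lower (-1.26). When edgeR's exact test allowed for the variation between animals that it estimated from these libraries, 1.03% of the genes were called and no member was among them. The adjusted p of Mir212 was then 1.00, and over all tested genes 16 had an unadjusted p under 0.05. The same 2 libraries gave both the estimated variation and the difference under test, so most calls were bound to be lost. The edgeR test therefore cannot decide whether Mir212 differed.

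**Figure D2:**
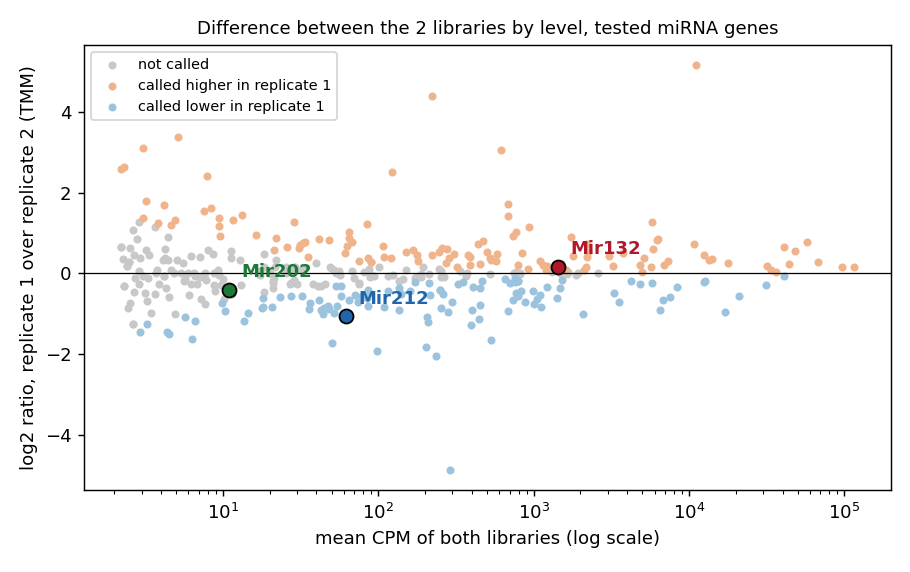
Log2 ratio of replicate 1 over replicate 2 after TMM scaling against mean CPM (log scale) for the 389 tested miRNA genes, coloured by the exact binomial test. Mir132 sits at 0.17 and Mir202 at -0.41 in the body of the cloud, and Mir212 at -1.06 lies near its lower edge.

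Neighbouring miRNA genes gave a scale for the unevenness of the Mir212 and Mir132 locus. Among the tested genes, 70 pairs of next neighbours lay within 1000 bases of each other on the same strand. The level gap of Mir212 and Mir132, 4.66 on the log2 scale as the mean of both libraries, was the 10th largest, against a median of 2.01. The change of the pair's ratio between the animals, 1.22 on the log2 scale, was the 8th largest, against a median of 0.45. Larger changes were found for Mir16-1 and Mir15a (2.15), Mir144 and Mir451a (2.11), Mir96 and Mir183 (1.85) and Mir221 and Mir222 (1.81). These 4 pairs were named after their values were seen. Among the 51 pairs with 100 or more counts throughout, Mir212 and Mir132 ranked 6th. Some pairs, such as Mir16-1 and Mir15a, hold a copied gene whose shared reads multimap and are missing. Their gaps and changes are uncertain for this reason, and so are the ranks and medians.

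**Figure D3:**
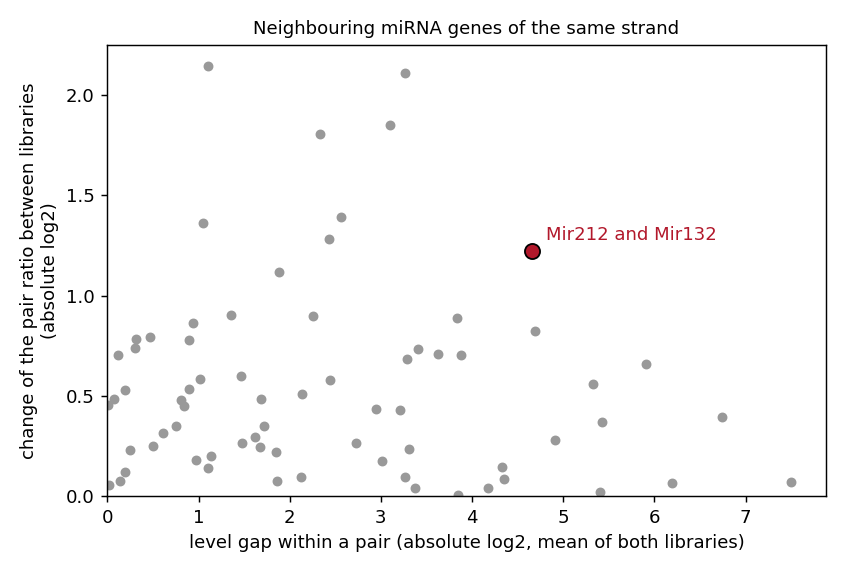
For 70 pairs of neighbouring miRNA genes, the level gap within the pair (absolute log2 ratio, mean of both libraries) against the absolute change of that ratio between the libraries. Mir212 and Mir132 combine a gap of 4.66 with a change of 1.22, and the pairs with larger changes have smaller gaps.

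The genes whose levels in both libraries were most like those of each member were found by distance in log2(CPM + 1), over 2 libraries only. For Mir132 these were Mir146 (1522 and 1474 CPM in replicates 1 and 2), Mir17 (1375 and 1572 CPM) and Mir708 (1246 and 1392 CPM). Mir146 is a miRNA of white blood cells and Mir17 belongs to a growth-associated cluster. For Mir212 they were Mir323 (36.9 and 90.9 CPM), Mir153 (35.8 and 72.3 CPM) and Mir187 (46.4 and 83.7 CPM). All 3 were higher in replicate 2, as the choice by likeness fixes. Mir323 lies in the imprinted cluster of chromosome 12, and Mir153 is best known from neurons. For Mir202 they were Mir129-1 (8.69 and 14.1 CPM), Gm47277 (8.17 and 11.4 CPM) and Mir384 (7.30 and 12.9 CPM). Mir129-1 is a copied gene, and its value lacks multimapping reads.

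Mir132 and Mir212 belong to a list of 5 genes reported to be raised by ACTH in rat adrenals. All 5 were detected here, beside 372 of all 2202 genes, and detection alone does not bear on ACTH. This list and the next were drawn up from general knowledge of such reports, which were not at hand, and may be incomplete. The other members are the cluster of Mir182, Mir183 and Mir96, known from sensory cells. Mir182 stood at 320 CPM (replicate 1) and 354 CPM (replicate 2), Mir183 had 126 and 89.7 CPM, and Mir96 had 7.65 and 19.8 CPM. The 5 genes split between the animals: Mir132 and Mir183 (log2 ratio 0.68) were called higher in replicate 1 by TMM, Mir212 and Mir96 (-1.17) lower, and Mir182 (0.05) was not called. By total counts Mir132 was not called and Mir182 (-0.15) was called lower. The median log2 ratio of the list was 0.05, against 0.01 over all tested genes, of which 30.8% were called higher and 28.3% lower by TMM. By total counts the list had 1 gene called higher and 3 lower, against 21.9% and 43.7% of all tested genes. Mir132 alone made up most of the list's sum, 1905 CPM (replicate 1) and 2001 CPM (replicate 2).

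Of 11 genes in the list reported to be lowered by ACTH, 3 were detected. Mir214, which the mesenchymal marker list also holds, stood at 734 CPM (replicate 1) and 1504 CPM (replicate 2). Mir27a had 759 and 1343 CPM, and Mir503, of a growth-restraining cluster on the X chromosome, had 154 and 191 CPM. Mir214 (log2 ratio -0.84) and Mir27a (-0.62) were called lower in replicate 1, as Mir212 of the opposite list was, and Mir503 (-0.11) was called lower by total counts only. The median log2 ratio was -0.62, against 0.01 over all tested genes, of which 28.3% were called lower by TMM and 43.7% by total counts. The remaining 8 are copies of Mir466b, which had no counts, though reads shared by copies multimap and would be missing.

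Mir202 was the lowest of the 6 detected genes in a list of 20 gonad-linked ones. Mir34c, a miRNA of testis and of ciliated cells that is also a p53 target, led with 1025 CPM (replicate 1) and 1787 CPM (replicate 2). Mir449a, of the same seed family, had 53.0 and 87.6 CPM. Mir383, known from testis, had 81.2 and 54.3 CPM, and Mir224, known from the granulosa cells of the ovary, had 73.0 and 52.2 CPM. Mir383 and Mir224 were called higher in replicate 1, Mir34c, Mir449a and Mir34b lower, and Mir202 not called, with no change of these calls by total counts. The median log2 ratio was -0.47, against 0.01 over all tested genes. Of all tested genes 30.8% were called higher and 28.3% lower by TMM, and 21.9% and 43.7% by total counts. The other 14 genes were undetected, and 12 of them had no count in either library.

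**Figure D4:**
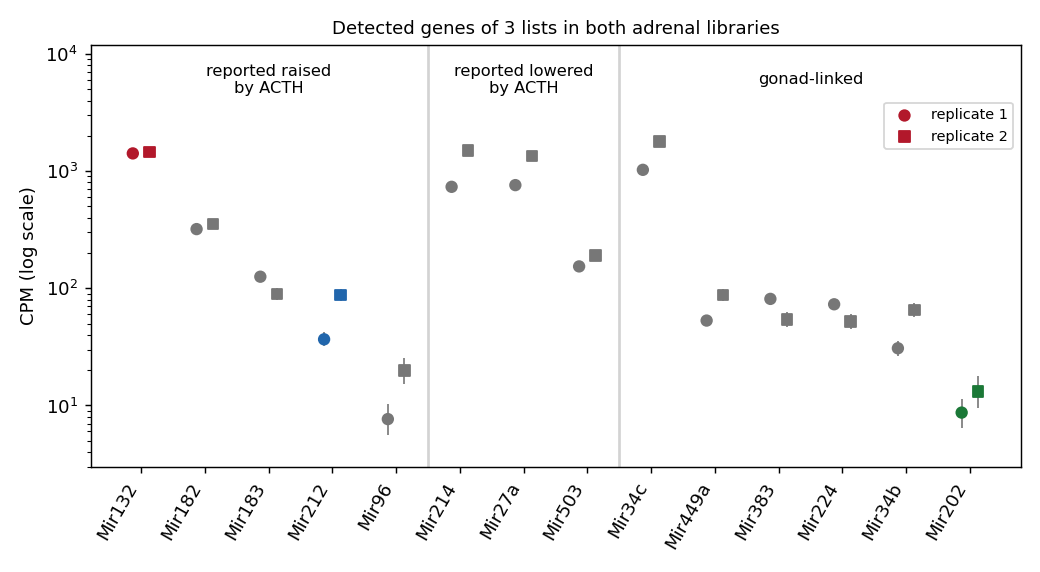
CPM on a log scale of the detected genes of the 3 lists, with circles for replicate 1, squares for replicate 2 and bars for the exact 95% counting interval where it is wider than the symbol. Mir132 (red) is level at 1416 and 1449 CPM, Mir212 (blue) stands at 36.7 and 87.6 CPM, and Mir202 (green) is lowest in its list at 8.69 and 13.2 CPM.

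Some marker lists of other cell types also differed between the libraries, beside the difference of Mir212, while the sums of others were near level. The 3 detected erythroid genes, led by Mir451a, reached 22813 CPM (replicate 1) and 901 CPM (replicate 2) together. The neuroendocrine list, led by Mir375, had all 4 genes detected and summed to 72802 and 51447 CPM. Mir375 alone had 68780 and 46236 CPM, while the next gene, Mir7b, had 3666 and 4819 CPM. By TMM 2 genes of this list were called higher and 1 lower in replicate 1, and by total counts 2 and 2. The neuronal list, led by Mir137, had 7 of 14 genes detected and summed to 646 and 902 CPM. In it 4 genes were called lower and 1 higher in replicate 1 by TMM, against 28.3% and 30.8% of all tested genes. By total counts the list had 5 lower and 0 higher, against 43.7% and 21.9% of all tested genes. Its copied genes Mir124a-1, Mir124a-2, Mir124a-3, Mir9-1 and Mir9-2 had no counts. Muscle genes summed to 719 and 454 CPM with 3 of 9 detected, which moved in opposite directions. Mir206, the highest in mean, had 81.7 and 389 CPM, while Mir499 had 423 and 23.1 CPM and Mir208b 204 and 40.8 CPM. Kidney genes, led by Mir204, summed to 97.4 and 141 CPM with 4 of 5 detected. Smooth muscle and mesenchymal genes (led by Mir143, 5 of 6 detected) summed to 33519 and 34841 CPM. Mir143 alone had 31774 and 31884 CPM, and by TMM 2 genes of this list were called higher and 2 lower in replicate 1. Endothelial genes (Mir126a, 1 of 2) summed to 69154 and 65135 CPM. White blood cell genes (Mir146, 5 of 5) summed to 2956 and 3251 CPM, and epithelial genes (Mir200c, 5 of 5) to 58.2 and 50.7 CPM. Within the white blood cell list, Mir223, a neutrophil miRNA, had 36.7 and 159 CPM (log2 ratio -1.92), further than Mir212 in the same direction. The list as a whole did not share this direction by TMM, with 3 genes called higher and 2 lower in replicate 1 and a median log2 ratio of 0.16. By total counts 0 of its genes were called higher and 2 lower. Of these 9 marker lists, the neuronal and the muscle list (Mir1a-1, Mir133a-2) held genes without counts. Mir1a-1 and Mir133a-2 are copied genes too, and reads shared by copies multimap and would be missing. The neuronal and muscle sums may thus lack reads of such genes. Other lists hold copied genes too, such as Mir199a-1 and Mir199a-2, Mir194-1 and Mir194-2, and Mir7-1 and Mir7-2. The mesenchymal, kidney and neuroendocrine sums may lack shared reads as well. Without the erythroid and muscle genes in the scaling, the log2 ratio of Mir212 was -1.05. The part of cell mixture in the difference of Mir212 was not tested. Messenger RNAs of the steroid-producing cortex were not measured in these libraries, so its share of each sample was not checked.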

How the data were processed

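Whole numbers of reads per miRNA gene (counts) were deposited by the authors for mm10 and GENCODE M21, per the files that describe each library, in 3 columns without headings. The values are whole numbers with unequal totals, that is, not normalized. No source used here names the aligner, trimming or counter. All 2202 gene identifiers matched GENCODE M21. From their values, the columns were read as counts without regard to strand, on the gene's strand (column 3, used here) and on the opposite strand, since column 3 held most counts and almost no ambiguous reads. The 4 rows that name no gene held 66.2% of reads in replicate 1 and 69.0% in replicate 2, and stayed out of totals and tests.

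CPM were counts over the total at miRNA genes, times 1000000. TMM factors came from edgeR over the tested genes. Log2 ratios had 0.5 counts added to each library. The exact binomial test took its expected share from the TMM library sizes, with Benjamini-Hochberg adjustment over all miRNA genes tested and a threshold of 0.05. The labels give 1 group, so no quasi-likelihood test between groups was possible, and no number pairs the samples. P-values compare 2 libraries. The labels name separate animals. edgeR's exact test with a common dispersion (biological coefficient of variation 0.361) was an alternative.

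The members and lists were chosen with earlier results of these data known. Named were the members, for each the 3 detected genes nearest in log2(CPM + 1), detected genes of the ACTH lists, up to 4 of the gonad-linked list, the highest gene of each marker list, and genes within 10 kb. Mir34b, Mir499, Mir208b, Mir223, Mir7b and 4 neighbouring pairs were added after their values were seen. Alternatives were other denominators, the unstranded counts, DESeq2 size factors, total counts, filters on low counts, counts per hairpin base, and leaving out a library. Tools were edgeR 4.0.16 and DESeq2 1.42.0 under R 4.3.3, and pandas 2.3.3, matplotlib 3.10.9 and SciPy 1.17.1 under Python 3.11.15.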

Additional observations from a re-analysis of the deposited data

How the results depend on the processing

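Levels moved with the denominator. The mean CPM of Mir132 was 464.1 over all reads, 681.9 over aligned reads, 1702 with counts taken without regard to strand and 3404 when the 10 most abundant genes were left out of the total. Mir212 was at 19.8 over all reads, 28.8 over aligned reads and 145 without those 10 genes. Mir202 was at 3.52, 5.14 and 25.8 in the same order. By leaving out 1 library, the mean CPM ranged from 1416 to 1449 for Mir132, from 36.7 to 87.6 for Mir212 and from 8.69 to 13.2 for Mir202. The log2 ratio of Mir132 over Mir212 ranged from 4.05 to 5.27, and it was 5.12 per hairpin base. Between the libraries, Mir132 turned to -0.034 by total counts. With edgeR's exact test and a common dispersion, Mir132 (0.17) and Mir212 (-1.06) were no longer called, and 4 genes in place of 230 were. That dispersion came from the same 2 libraries that were compared, so this loss of calls decides nothing. For Mir212 the log2 ratio lay between -1.26 and -1.05 over its 8 alternatives, with adjusted p from 1.32e-21 to 1.00, and it was called in all of them but edgeR's test. For Mir132 adjusted p ranged from 1.59e-10 to 1.00. Mir202 was not called under any of its 7 alternatives, and could not be tested with a filter of 100 counts. Of the genes reported raised by ACTH, 1 in place of 2 was called higher in replicate 1 by total counts. Over all tested genes the share called higher was 21.9% in place of 30.8%. No paired analysis was possible because the labels give 1 group. Depth limits Mir202 most, at 50 and 44 counts.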
